A study of Ovis aries with 16 samples.

Results

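The microRNA MIR133 and the long non-coding RNA locus LOC105604459 were followed across small RNA libraries of sheep thigh muscle and liver. They are 2 rows of the 4920 rows in the deposited tables, MIR133 being 1 of 105 miRNA rows and LOC105604459 being 1 of 2973 lncRNA rows. Both were chosen by their read levels in these 16 libraries, which were far higher in muscle than in liver. Their difference between the tissues is therefore given as a description without a test, and only the comparisons of treatment were tested.

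All animals were female offspring of Suffolk sheep, sampled at about 21 months of age in the late follicular phase. The BPA group comprised 4 animals whose mothers had received bisphenol A (BPA), a building block of polycarbonate plastic that binds oestrogen receptors, under the skin at 0.5 mg/kg each day between days 30 and 90 of pregnancy. The control group comprised 4 animals whose mothers had received the corn oil vehicle. Every animal was fasted for 48 hours and had its cycle synchronised with 2 prostaglandin injections, 11 days apart, the last of them 24 hours before sampling. Each animal gave 1 library of vastus lateralis, a thigh muscle, and 1 library of the tip of the left liver lobe, so that 16 libraries fall into 4 groups of 4. BPA animals were numbered 910, 918, 977 and 984, and control animals 902, 908, 924 and 928. The question was how exposure before birth affected non-coding RNA in adult muscle and liver.

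MicroRNAs are short RNAs that guide a silencing complex to messenger RNAs. The miR-133 family is known from mammals as a family of heart and skeletal muscle. Its members are transcribed together with members of the miR-1 family from paired genes under the control of muscle transcription factors such as MEF2 and SRF. Mammals carry such a pair at more than one place in the genome with the same mature sequence, one of these places being inside MIB1, which encodes a ubiquitin ligase that acts on Notch ligands. In mouse myoblasts, miR-133 was linked to proliferation and miR-1 to differentiation.

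In RefSeq's annotation of sheep (assembly ARS-UI_Ramb_v3.0), LOC105604459 lay inside the span of MIB1, and no other row with a place in that annotation lay inside or within 50 kb of MIB1. The annotation held 3108 of the 4920 rows and 1372 of the 2973 lncRNA rows, and the places of the others, LOC105603743 among them, were not examined. The table gives no exons, so whether the locus is intronic was not examined. The MIR133 row belonged to another chromosome of that assembly, with SLCO4A1, a transporter gene, among its neighbours. The 2 rows therefore do not describe 1 locus. No miRNA gene was annotated inside LOC105604459 in that table. The one annotated gene within 50 kb of MIR133 that has a row in the files, the lncRNA LOC114117601, had 1 read over the 16 libraries. That locus was chosen after its values were seen. The sources used here do not say how a read that maps to both places was counted, so the tables cannot show which copy a read came from or whether it entered both rows. The build that the authors used may differ, and no coordinates or sequences are printed.

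Reads assigned to the 4 tables ranged from 159650 to 2146593 per library. The miRNA reads numbered 578150 to 1383538 in BPA livers and 94393 to 240815 in control livers, so the control livers were the shallowest. The snRNA reads numbered 877 to 3865 in BPA livers and 29981 to 58486 in control livers. The total of the 4 tables thus differed in makeup between the treatments in liver. Intervals below are Wilson 95% intervals and cover counting error only. The reads carried no molecular identifiers, so copies of the same molecule count as separate reads and the intervals may be too narrow. The labelled tissues were checked on liver miRNAs, of which MIR148A and MIR194 had rows. MIR194 had deposited values of 107 to 206 in muscle and 7863 to 10615 in liver, and MIR148A had 1166 to 1894 in muscle and 31377 to 56888 in liver. Of 11 names on a list of striated muscle miRNAs, MIR133 alone matched a row; the others were not analysed here. Livers 902 and 984 and muscle 984 stood apart from the other libraries in the values of the members, and most of the treatment comparisons they touch are given with and without them.

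MIR133 was the most abundant miRNA in every muscle library. It took 47.1%, 57.4%, 54.1% and 43.6% of the miRNA reads in muscle of BPA animals 910, 918, 977 and 984. In muscle of control animals 902, 908, 924 and 928 it took 55.7%, 54.1%, 57.4% and 52.2%. The counting error of these shares was at most 0.143 percentage points. The muscle of BPA animals 984 and 910 lay below every control muscle, and the other two BPA muscles lay within or just above the control range.

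In liver MIR133 was a minor miRNA, in places 33 to 48 by read number among the 105 rows. Its reads numbered 459, 229, 337 and 1067 in BPA livers 910, 918, 977 and 984, and 205, 96, 77 and 49 in control livers 902, 908, 924 and 928. The shares of the miRNA reads were 0.0332%, 0.0396%, 0.0490% and 0.166% in these BPA livers, and 0.217%, 0.0399%, 0.0345% and 0.0401% in the control livers. One liver of each treatment, BPA 984 and control 902, was high, and the remaining 6 lay between 0.0332% and 0.0490%. The interval was 0.157% to 0.177% for liver 984, 0.189% to 0.249% for liver 902 and 0.0304% to 0.0531% for liver 928, which had the fewest reads.

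LOC105604459 showed the same pattern of tissues in the lncRNA table. It took 52.7%, 61.6%, 58.7% and 40.5% of the lncRNA reads in muscle of BPA animals 910, 918, 977 and 984. In muscle of control animals 902, 908, 924 and 928 it took 59.0%, 57.7%, 58.1% and 58.7%. It was the most abundant lncRNA row in 7 of the 8 muscle libraries, and second in BPA muscle 984. The control muscles lay within 2 percentage points of each other, while the BPA muscles spread on both sides of them.

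In liver the locus had 667, 378, 711 and 1462 reads in BPA animals 910, 918, 977 and 984, and 223, 137, 113 and 84 reads in control animals 902, 908, 924 and 928. The shares of the lncRNA reads were 0.235%, 0.328%, 0.619% and 1.43% in these BPA livers, and 1.22%, 0.330%, 0.249% and 0.310% in the control livers. Liver 984 of the BPA group and liver 902 of the control group were again the highest of their groups. Liver 977 of the BPA group lay between these and the others. The locus stood in places 8 to 23 by read number in liver.

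**Figure D1:**
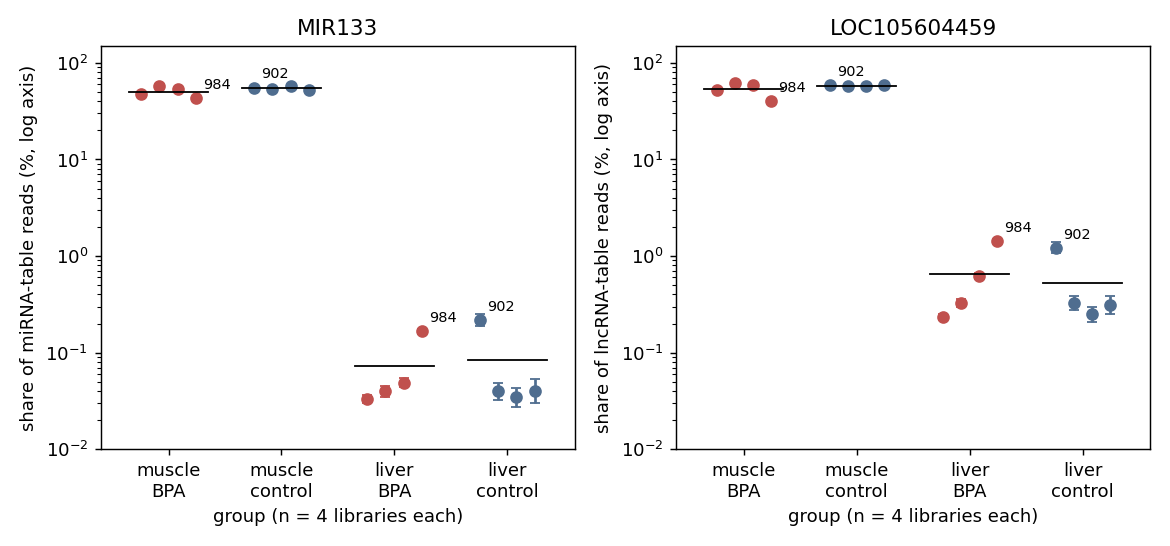
Share of the reads of its own table (percent, log axis) taken by MIR133 (left, miRNA table) and LOC105604459 (right, lncRNA table) in each library, with Wilson 95% counting intervals; black lines are group means over 4 libraries. Muscle shares lie between 40.5% and 61.6%, liver shares between 0.0332% and 1.43%, and livers 984 (BPA) and 902 (control) stand above the other livers.

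Together the 2 rows took 41.3% to 59.1% of all reads of the 4 tables in muscle, and 0.0567% to 0.337% in liver. A read that entered both rows would be counted more than once here, which was not examined. Within an animal the share of MIR133 was 256 to 1664 times as high in muscle as in liver, and that of LOC105604459 was 28.3 to 233 times as high. For MIR133 the lowest of these ratios belonged to animals 902 (256) and 984 (262), and the other 6 were 1105 or more. Because these are bulk tissues, fewer cells of a type and less RNA per cell cannot be told apart.

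On the scale of the deposited values, which divide reads by a size factor set separately for each table and tissue, the log2 difference between muscle and liver was 10.61 ± 1.14 for MIR133 and 10.18 ± 1.33 for LOC105604459 (SD over 8 animals, no test). With 1 scale over both tissues, set by the median of ratios, these differences were 11.19 and 9.78. As shares of the table's reads they were 9.82 and 6.90. A share cannot exceed 100%, and each member took over 40% of its table in muscle, which bounds both differences on that last scale. The difference of MIR133 was the largest of 76 miRNA rows, followed by MIR10B at 4.45, MIR150, a miRNA of leukocytes, at 2.52 and MIR362 at 2.10. Among 146 lncRNA rows LOC105604459 came second, after LOC105603743 at 12.73 and before LOC114117239 at 6.95 and LOC105603956 at 5.03. The gene table used here did not hold these last 3 loci.

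LOC105603743 was the other abundant lncRNA row of muscle. It took 29.9% to 49.3% of the lncRNA reads of BPA muscle and 33.0% to 35.7% of those of control muscle, and was highest in BPA muscle 984. With both loci set aside, 8.42% to 10.2% of the lncRNA reads were left in BPA muscle and 6.29% to 7.99% in control muscle. When LOC105603743 alone was taken out, a setting added after the data were seen, LOC105604459 took 85.0% ± 3.62 of the remaining reads in BPA muscle and 89.4% ± 0.935 in control muscle (SD, n = 4 each). Every BPA muscle was then below every control muscle. The exact two-sided permutation p was 0.0286, the smallest that 4 against 4 allow, and 0.171 after Benjamini-Hochberg adjustment over 6 tests.

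**Figure D2:**
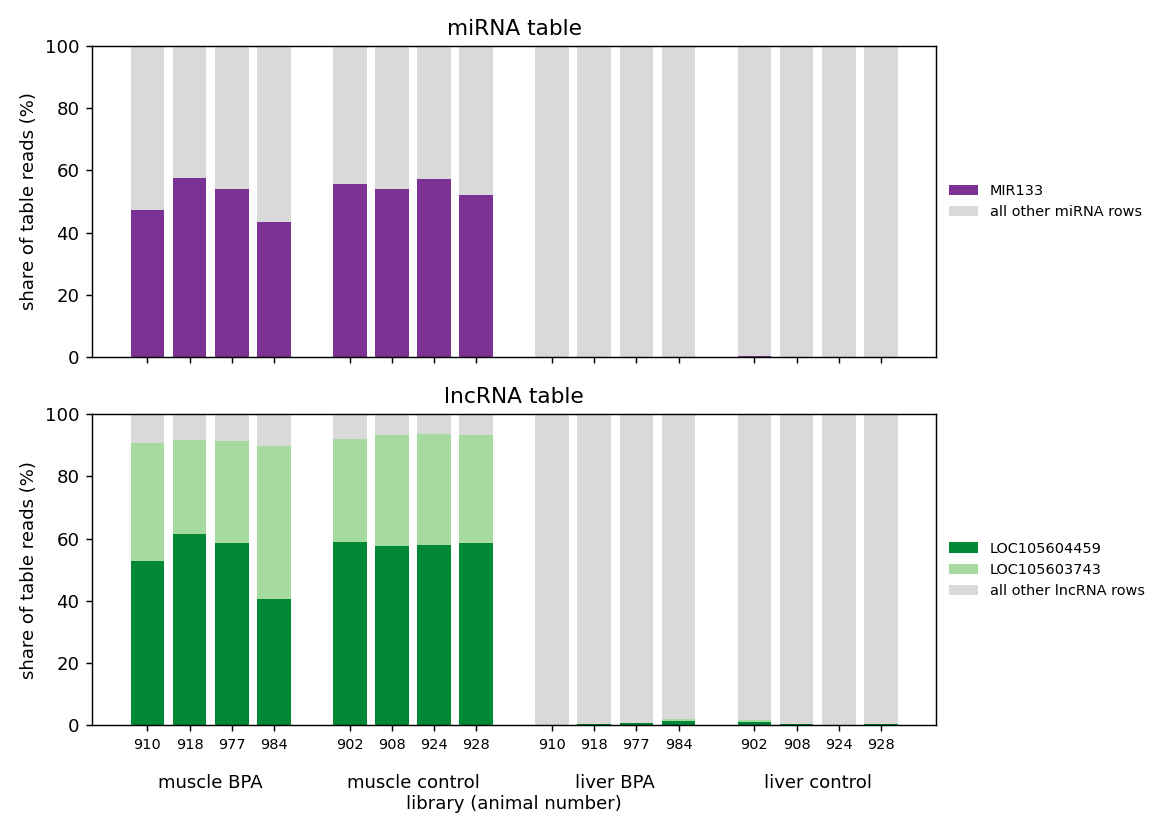
Makeup of the reads of the miRNA table (top) and the lncRNA table (bottom) in each library, as percent of the table's reads, with libraries named by animal. MIR133 fills 43.6% to 57.4% of the muscle bars in the top panel, and LOC105604459 with LOC105603743 leaves 6.29% to 10.2% of the muscle bars to all other lncRNA rows, while in liver the other rows fill nearly the whole bars.

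The number of LOC105604459 reads followed the number of MIR133 reads within each library, and this ratio needs no size factor. Its intervals treat the reads of these rows as separate, and whether a read entered both was not examined. There were 1114, 1115, 1119 and 1055 LOC105604459 reads per 1000 MIR133 reads in muscle of BPA animals 910, 918, 977 and 984. In muscle of control animals 902, 908, 924 and 928 there were 1110, 1105, 1095 and 1104. BPA muscle 984 stood below all others, with an interval of 1049 to 1060, against intervals that began at 1090 or above in the other 7 muscle libraries. The ratio varied by 1.87% (coefficient of variation) over the 8 muscles and by 0.726% without muscle 984. Among 151 lncRNA rows it was the least variable ratio to MIR133, the next being that of LOC105604676 at 7.33%, and rows with few reads vary more by counting alone. Among the other 69 miRNA rows, the least variable ratio to MIR133 was that of MIR30B at 11.6%.

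In liver the ratio was higher and more spread. It was 1453, 1651, 2110 and 1370 per 1000 MIR133 reads in BPA livers 910, 918, 977 and 984, and 1088, 1427, 1468 and 1714 in control livers 902, 908, 924 and 928. Livers 902 and 984, in which both members were high, had the lowest ratios of their groups, and the interval of liver 902, 900 to 1315, overlapped the muscle values. Liver 977 had the highest, with an interval of 1853 to 2402. With a coefficient of variation of 19.5% it was still the least variable of 124 lncRNA rows in liver. The ratio compares numbers of reads in 2 tables and is not a level per length.

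The difference in this ratio between treatments did not pass the test in either tissue. After adjustment over 6 tests, even a complete separation of BPA from control in a single comparison could not have passed alone. The mean was 1101 ± 30.7 in BPA muscle and 1104 ± 6.17 in control muscle, and 1646 ± 331 in BPA liver and 1424 ± 258 in control liver (SD, n = 4 each; exact permutation p = 1 and 0.429, adjusted 1 and 0.857 over 6 tests). Without muscle 984, BPA muscle had 1116 ± 2.26 (n = 3) and control muscle 1104 ± 6.17 (n = 4), with all BPA muscles above all control muscles. The difference in muscle was -2.91 reads per 1000 with muscle 984 and 12.4 without it, the second with an exact permutation p of 0.0571, the smallest that 3 against 4 allow, and 0.343 after adjustment. In liver the difference was 222 reads per 1000, and without livers 984 and 902 it was 202, with 1738 ± 337 in BPA livers and 1536 ± 155 in control livers (SD, n = 3 each; exact permutation p = 0.6, adjusted 1, where 3 against 3 cannot go below 0.1).

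**Figure D3:**
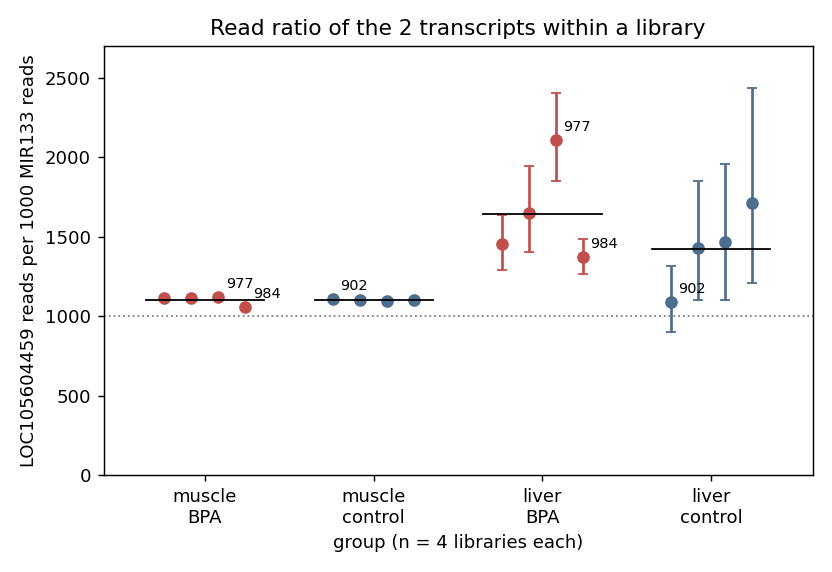
LOC105604459 reads per 1000 MIR133 reads in each library (points, with 95% counting intervals from the Wilson method) by group, with group means as black lines and a dotted line at equal numbers. The muscle libraries lie between 1055 and 1119, and the livers spread from 1088 to 2110.

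The treatment was next compared on deposited values, on the scale log2(value + 1), with all rows of a table fitted by limma and p-values adjusted over the table. MIR133 had deposited values of 247370, 370470, 326389 and 244661 in muscle of BPA animals 910, 918, 977 and 984. The values in muscle of control animals 902, 908, 924 and 928 were 335941, 355695, 373488 and 318172. The groups overlapped, with BPA muscles 910 and 984 below all control muscles. The log2 fold change was -0.24 ± 0.16 (SE, limma adjusted p = 0.841), with a 95% interval from -0.59 to 0.11. Without muscle 984 it was -0.15 (limma adjusted p = 0.823). No row of the miRNA table was called in muscle (0% of 70 rows by limma, with 3 at an unadjusted p under 0.05, and 0 by edgeR or DESeq2). The median log2 fold change of these 70 rows was 0.01.

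MIR133 in liver had deposited values of 122, 136, 164 and 574 in BPA animals 910, 918, 977 and 984, and 717, 142, 115 and 155 in control animals 902, 908, 924 and 928. The log2 fold change was -0.05 ± 0.58 (SE, limma adjusted p = 0.938), and its 95% interval, from -1.32 to 1.21, allows a change of more than 2-fold in either direction. In the same test 9 of 78 miRNA rows (11.5%) were called. The sign turned with the libraries included. The log2 fold change was 0.54 without liver 902, -0.56 without liver 984 and 0.03 without both, and it was above 0 without BPA liver 910 (0.18), 918 (0.13) or 977 (0.04). None of these passed. The library codes in the labels place control liver 902 with BPA livers 977 and 984 in 1 range, where the values were 164 and 574 in the BPA livers and 717 in the control liver. The other code ranges held livers of a single treatment, BPA livers 910 and 918 or control livers 908, 924 and 928. There the code and the treatment cannot be told apart. With the code range in the model the log2 fold change was -1.22, which compares control liver 902 alone with BPA livers 977 and 984.

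LOC105604459 had deposited values of 281854, 412284, 317564 and 204679 in muscle of BPA animals 910, 918, 977 and 984. The values in muscle of control animals 902, 908, 924 and 928 were 395724, 365354, 430039 and 390596. In 3 of the 4 BPA muscles the value was below every control, and in muscle 918 it was within the control range. The log2 fold change was -0.42 ± 0.18 (SE, unadjusted p = 0.0401, limma adjusted p = 0.284) and did not pass, in a table where 8 of 151 rows (5.30%) were called and the median log2 fold change was -0.02. Without muscle 984 the log2 fold change was -0.25 (limma adjusted p = 0.394). The library codes of all BPA muscles are higher than those of all control muscles, so in muscle the code and the treatment cannot be told apart.

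LOC105604459 in liver had deposited values of 214, 299, 481 and 1233 in BPA animals 910, 918, 977 and 984, and 349, 199, 146 and 140 in control animals 902, 908, 924 and 928. BPA livers 977 and 984 lay above every control liver, and the others overlapped with them. The log2 fold change was 1.18 ± 0.58 (SE, limma adjusted p = 0.134; 95% interval from -0.09 to 2.45). It did not pass in a table where 44 of 124 rows (35.5%) were called. Of these 44 rows 20 were higher and 24 lower in BPA livers, and the median log2 fold change over the 124 rows was 0.06. Scaled by the size factors of the miRNA table, the locus had a log2 fold change of 0.15 (limma adjusted p = 0.860), while the median over 140 rows was -1.14, with 5 rows called higher and 52 lower. With 1 scale over both tissues it was 1.42 (limma adjusted p = 0.0757), the median over 135 rows was 0.34, and 29 rows were called higher and 22 lower. On all 3 scales the locus lay above the median of its table. Without livers 902 and 984 it was 0.97 (limma adjusted p = 0.122), and without liver 984 alone 0.69.

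As shares of the table's reads, neither member passed in either tissue. The smallest exact permutation p of 0.0286, reached alone among 6 tests, would be 0.171 after adjustment. A complete separation of BPA from control in a single comparison could therefore not have passed. MIR133 took 50.6% ± 6.33 in BPA muscle and 54.8% ± 2.21 in control muscle, and 0.0720% ± 0.0632 in BPA liver and 0.0829% ± 0.0895 in control liver (SD, n = 4 each; exact permutation p = 0.343 and 0.771, adjusted 0.857 and 0.926 over 6 tests). LOC105604459 took 53.4% ± 9.37 in BPA muscle and 58.4% ± 0.580 in control muscle, and 0.653% ± 0.544 in BPA liver and 0.526% ± 0.461 in control liver (exact permutation p = 0.400 and 0.629, adjusted 0.857 and 0.926). The direction in liver rested on single livers. The difference between BPA and control in the MIR133 share was -0.0109 percentage points, 0.0339 without control liver 902 and -0.0423 without BPA liver 984. That in the LOC105604459 share was 0.127 percentage points, 0.357 without control liver 902 and -0.132 without BPA liver 984. Without both livers, MIR133 took 0.0406% ± 0.00795 in BPA liver and 0.0382% ± 0.00320 in control liver, and LOC105604459 took 0.394% ± 0.200 in BPA liver and 0.296% ± 0.0418 in control liver (SD, n = 3 each; exact permutation p = 0.9 and 0.7, adjusted 1 each, with 0.1 the smallest possible). Without muscle 984, BPA muscle had 52.9% ± 5.25 for MIR133 and 57.7% ± 4.58 for LOC105604459 (SD, n = 3).

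The difference of the treatment effect between muscle and liver was tested with all 16 libraries. For MIR133 it was -0.18 ± 0.67 (limma adjusted p = 0.936), with 2 of 76 miRNA rows (2.63%) called, and 0 with the animal as a replicate block. It was -0.79 without animal 902 and 0.41 without animal 984 (limma adjusted p = 0.442 and 0.648). For LOC105604459 it was -1.60 ± 0.61, lower in muscle (limma adjusted p = 0.0564), and did not pass the threshold of 0.05. Of 146 lncRNA rows 42 (28.8%) were called, 25 of them higher and 17 lower, with a median of -0.17. That fit took the libraries of an animal as independent. With the animal as a replicate block the difference for LOC105604459 was -1.60 (limma adjusted p = 0.111), with 31 rows called. Without the block it passed under some settings, among them DESeq2 on reads, where it was -2.07 (adjusted p = 0.00847). Another was a common scale over both tissues, where it was -1.93 (limma adjusted p = 0.0255), with a median of -0.44 and 24 rows called higher and 32 lower. It also passed without animal 902, 910 or 918 (-1.88, -1.93 and -1.95; limma adjusted p = 0.0390, 0.0360 and 0.0441). It was -0.93 without animal 984 (limma adjusted p = 0.196), -1.09 by edgeR (adjusted p = 0.251) and -0.39 with the size factors of the miRNA table (limma adjusted p = 0.670). On that last scale the median was 0.83, with 37 rows called higher and 1 lower.

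**Figure D4:**
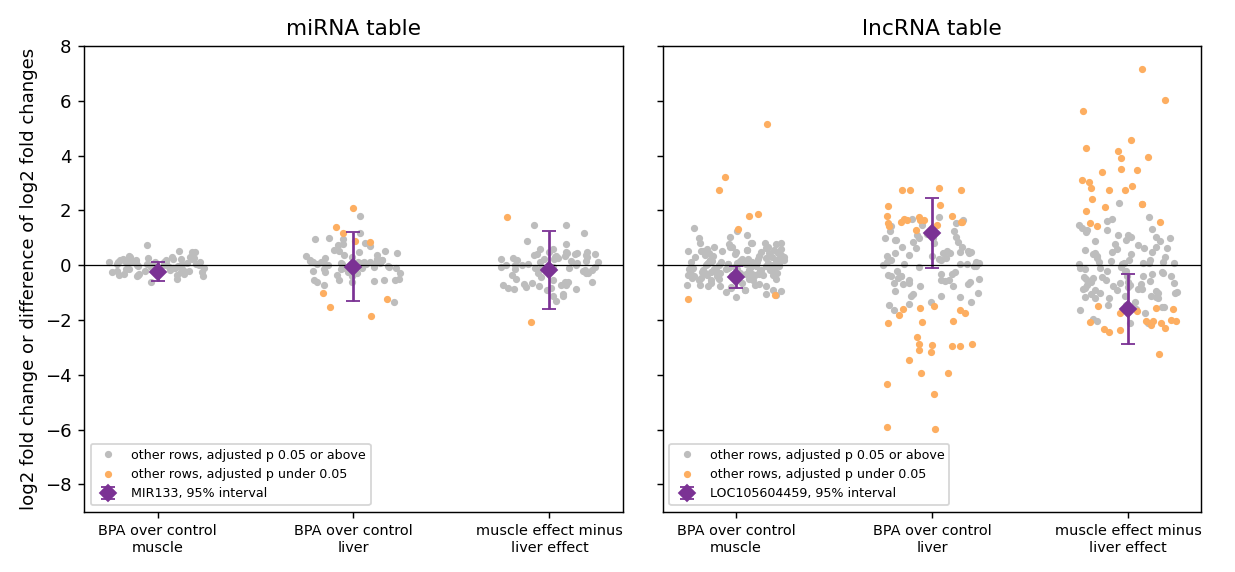
Log2 fold change of BPA over control in muscle and in liver, and the difference between these effects, for every tested row of the miRNA table (left) and the lncRNA table (right); diamonds with 95% intervals are MIR133 and LOC105604459, and orange points are other rows with an adjusted p under 0.05. MIR133 lies at -0.24, -0.05 and -0.18 and LOC105604459 at -0.42, 1.18 and -1.60, each within the spread of the other rows.

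Rows that varied most like the members within a tissue were named by Pearson's r over the 8 libraries, as a description in which all points of a library share its depth and scale. In muscle MIR133 was most like MIR17, a miRNA of the miR-17/92 cluster (r = 0.90), MIR30B (0.75) and MIR10B (0.71). Without the pair of libraries farthest from the median, BPA muscles 910 and 984, these were 0.48, 0.14 and 0.14. LOC105604459 in muscle was most like LOC105604676 (r = 0.97, and 0.92 without muscles 910 and 984), a lncRNA gene with 1598 to 3842 reads in muscle. LOC105603102 had an r of 0.85 with it, and 0.85 without these muscles. LOC105616444, which the gene table lists as protein-coding, had an r of 0.85, and 0.19 without them.

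In liver MIR133 was most like MIR21 (r = 0.90), MIR143 (0.80) and MIR10B (0.79), and without livers 902 and 984 these were 0.70, 0.53 and 0.51. MIR21 and MIR143 are miRNAs of fibroblasts and smooth muscle among other cells. MIR21 had deposited values of 6502 in BPA liver 984, 5863 in control liver 902 and 3488 to 4645 in the other 6 livers. MIR143 had 39524 in BPA liver 984, 31283 in control liver 902 and 18039 to 30615 in the other 6. MIR199A, also listed for fibroblasts and smooth muscle, had 13444 in BPA liver 984. It had 8899 in control liver 902, within the 5860 to 12485 of the other 6. MIR10B had 123 in BPA liver 984, within the 49.2 to 141 of the other 6, and 584 in control liver 902. LOC105604459 in liver was most like LOC114117338 (r = 0.82), LOC101112542 (0.81) and LOC105603743 (0.80). Without livers 977 and 984, those farthest from the median for this locus, these were 0.55, 0.08 and 0.76.

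Livers 902 and 984 also held more of LOC105603743. The next muscle-dominant lncRNA rows, LOC114117239 and LOC105603956, had at most 650 and 341 reads in any library, against 334211 for LOC105603743. Their liver counts are too small to show whether they were raised as well. LOC105603956 had 1 read in BPA liver 984 and 4 in control liver 902, against 0 to 31 in the other 6 livers. LOC114117239 had 1 read in BPA liver 984 and 0 in control liver 902, against 0 or 1 in the other 6 livers. LOC105603743 had 521 reads in BPA liver 984 and 104 in control liver 902, against 3 to 49 in the other 6 livers. It had 488 reads per 1000 MIR133 reads in BPA liver 984, 507 in control liver 902, 39.0 to 302 in the other livers and 542 to 1285 in muscle. The list of fibroblast and smooth muscle miRNAs, with 3 of 5 names matched, summed to 17.3% of the miRNA reads other than MIR133 in BPA liver 984, 14.0% in control liver 902 and 8.11% to 14.3% in the other livers. The 2 liver miRNAs matched of 5 names summed to 19.2% in BPA liver 984, 13.7% in control liver 902 and 11.1% to 15.9% in the other livers. The leukocyte list, with MIR150 matched of 4 names, was at 0.0672% and 0.0605% in livers 984 and 902 and at 0.0566% to 0.154% in the others. The endothelial list, with MIR221 matched of 3 names, was at 0.201% and 0.133% in livers 984 and 902 and at 0.0968% to 0.219% in the others. No name of the erythroid list matched. The part of these in the high values of the members was not tested.

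In BPA muscle 984 the fibroblast and smooth muscle list summed to 2.76% of the miRNA reads other than MIR133, against 5.98% to 10.0% in the other 7 muscles. The liver list was at 0.433% in muscle 984 and at 0.472% to 0.696% in the others, and MIR150 was at 0.872% and 0.511% to 0.730%. The endothelial list was at 0.127% in muscle 984, within the 0.102% to 0.168% of the others. Their part in the low shares of that library was not tested. Of the 7 marker rows other than MIR133, 0 were called for BPA in muscle, in liver or in the difference between them (limma, with 0, 1 and 1 at an unadjusted p under 0.05; edgeR and DESeq2 calls of these rows were not counted). Their log2 fold changes ran from -0.51 to 0.13 in muscle and from -0.08 to 0.50 in liver.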

How the data were processed

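Small RNA libraries of muscle and liver were made with a NEBNext kit, per the labels' protocols. Tools named in the submitters' processing notes are STAR 2.6.0c, featureCounts 1.6.1 and cutadapt 3.2. What each did, the build, strand and multi-mapping settings and the scaling tool are not stated there. Each of the 4 deposited tables holds a signal of normalized counts, which equals reads divided by 1 size factor per library. Every deposited value above 0 (100%) was a whole multiple of the library's smallest value within a tolerance of 0.001, so reads were recovered by division. The tissues of a table, and the 4 tables, were scaled separately.

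The deposited values were tested with limma 3.58.1 (R 4.3.3, mean-variance trend) on log2(value + 1) over all rows of the table with a mean of at least 5, two-sided, with Benjamini-Hochberg adjustment within a table, a fold change on this scale understating that of low rows. edgeR 4.0.16 and DESeq2 1.42.0 on recovered reads were alternatives. Shares and the read ratio were compared by exact two-sided permutation of 4 against 4 libraries (SciPy 1.17.1). Only the limma fit of the BPA effect in liver was tried on simulated reads, which varied less between livers than MIR133 did. The other tests were not tried on simulated reads. Each animal is a biological replicate. The replicate number marks the animal, which pairs its libraries. Deviations of an animal's muscle and liver from their group means correlated by -0.73 to 0.44 over 70 miRNA rows and by -0.28 to 0.18 over 99 lncRNA rows. The members, marker lists and alternatives were chosen with earlier results of these data known. Besides the members, the rows named are the 3 most alike by tissue difference and by r within a tissue, marker miRNAs and annotated neighbours. Names came from RefSeq, which held 100% of the miRNA rows and 46.1% of the lncRNA rows.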

Additional observations from a re-analysis of the deposited data

Results flagged for a closer look

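In 3 of the 4 groups a single library lay apart from the other 3 of its group by Dixon's test at the 95% level. Among 20 such checks (5 measures in 4 groups) 6 stood out, where chance flags about 1 group in 20, and the measures overlap. BPA liver 984 stood high in its share of miRNA reads taken by MIR133 (0.166%) and in the deposited value of MIR133 (574). Control liver 902 stood high in the MIR133 share (0.217%), in the deposited value of MIR133 (717) and in the share of lncRNA reads taken by LOC105604459 (1.22%). BPA muscle 984 stood low with 1055 LOC105604459 reads per 1000 MIR133 reads.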

How the results depend on the processing

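Neither member passed in the main fits, and of 174 values under the alternatives 153 kept their direction and their side of the threshold, or moved by less than the spread. The spread was the criterion for the tissue differences only. There, leaving out a single animal cannot move the mean that far, and the animal block repeats the main value. Those values were therefore bound to count among the 153. For the shares and the read ratio, leaving out any animal, or livers 902 and 984, left too few libraries for the exact permutation p to pass the threshold. Such values could change in direction only, so their side of the threshold says nothing about robustness. For the BPA effect on MIR133 the log2 fold change without single animals ranged from -0.56 to 0.54 in liver, from -0.35 to -0.15 in muscle and from -0.79 to 0.41 for the difference between tissues, and it was 0.03 without livers 902 and 984, a setting added after the data were seen. For LOC105604459 these ranges were 0.69 to 1.53, -0.58 to -0.25 and -1.95 to -0.93. Its difference between tissues was -1.60 with the replicate block of animals as without (limma adjusted p = 0.111), and that of MIR133 -0.18 (0.931), so the block changed no call of a member. That of LOC105604459 passed at -1.93 with a scale over both tissues and at -2.07 with DESeq2. With no filter on low values, the BPA effect on LOC105604459 in muscle (-0.42) had a limma adjusted p of 2.09e-05 (up to 0.557 over the alternatives), and the cause was not tested. The BPA-minus-control difference in the MIR133 share of liver was -0.0109 percentage points, and -0.0423 to 0.0339 without single animals. It was 0.00243 without livers 902 and 984, and 0.00937 as a share of all 4 tables, whose makeup differed between the treatments in liver. For the LOC105604459 share of liver the difference was -0.132 to 0.357 without single animals, and for the read ratio in muscle -8.88 to 12.4 per 1000. The tissue difference of LOC105604459 was 6.90 on shares of the table and that of MIR133 was 9.82, and shares are bounded for both. The liver shares of MIR133 rest on 49 to 1067 reads per library. The number of lncRNA rows called for the difference between tissues was 42, and 20 with no filter. That of miRNA rows was 2, 1 by edgeR and 0 with the block.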
